A study of Rattus norvegicus with 4 samples.

Results

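The genes described here encode the mitochondrial respiratory chain and ATP synthase. They were taken as every gene of the deposited table whose symbol begins with Nduf (complex I), Uqcr (complex III), Cox4, Cox5, Cox6, Cox7 or Cox8 (complex IV), Atp5 (complex V) or Mt- (genes of mitochondrial DNA). This gave 106 of 32623 genes. Of these, 93 were nuclear, with 40 complex I subunits, 8 complex I assembly factors, 9 complex III genes, 20 complex IV genes and 16 complex V genes, and 13 were mitochondrially encoded protein genes. At least 1 transcript was counted for 104 of them, and Cox7a1 and Cox8c had 0.

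The transcripts were captured on 4 Visium areas of the trigeminal nerve of wild-type adult male Sprague–Dawley rats in which 1 trigeminal root was compressed mechanically, a model of trigeminal neuralgia (TN). Visium is a slide with a grid of barcoded capture spots, and a spot can hold several cells or parts of cells. TN1, TN2 and TN3 each held the root, the ganglion and the proximal branches of the diseased side of 1 animal. The control area (HC) held the healthy side of 2 animals, which are not separated in the table. Whether these were among the 3 animals of TN1, TN2 and TN3 was not settled here. The methods also speak of sham-operated controls, and HC is used here as labelled. HC was therefore 1 sample, so that condition and capture area cannot be told apart, and p-values measure the spread between areas only. Values are unique molecular identifiers (UMIs, single captured transcripts), summed over the spots of an area or of a region within it, and CPM give them relative to the total of that sum. The CPM of single genes beside a test are TMM-scaled as in that test, and those of marker lists and other regions are not.

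As background, the respiratory chain passes electrons from NADH through complexes I, III and IV to oxygen and pumps protons across the inner mitochondrial membrane, and complex V (ATP synthase) uses the proton gradient to make ATP. Most subunits are encoded in the nucleus, translated in the cytosol and imported, while a small core is encoded and translated inside the mitochondrion, so that 2 genomes supply the same complexes. Neurons rely on this pathway to keep up their ion gradients, and the myelinating glia around axons are known for a larger part of glycolysis in their energy supply.

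The 4 areas had 1256 to 2013 spots and 23546025 to 41335930 UMIs, with a median of 9487 to 30808 UMIs per spot. The areas use a common set of barcodes, and of 3573 barcode sequences 2337 occurred in 2 or more areas and 52 in all 4, so a spot was identified by its barcode and area together. The spots were grouped by K-means into 10 clusters without any of the 106 genes, and clusters were named from marker genes. The ganglion region (clusters 1 and 5) had 14516 to 17493 CPM of 13 sensory neuron markers such as Calca and Scn10a in the 4 areas, against 2113 to 4893 CPM in the central myelin region. The central myelin region (clusters 4 and 8) had 3917 to 4440 CPM of 9 oligodendrocyte markers such as Mobp and Mog. In the ganglion region these were at 130 to 313 CPM. In every area the central myelin region had still more of 8 astrocyte markers such as Aqp4 and Gfap. These were at 4404 to 7795 CPM, against 304 to 563 CPM in the ganglion region, so the central myelin region was rich in both kinds of glia. The peripheral myelin region (cluster 2) had 25888 to 35646 CPM of 7 Schwann cell markers such as Prx, against 4749 to 6904 CPM in the ganglion region. The ganglion region of TN2 and TN3 lay mostly in another cluster than that of HC, while that of TN1 lay mostly in the HC cluster. In TN1, TN2, TN3 and HC in turn, cluster 1 had 209, 42, 132 and 948 spots. Cluster 5, whose leading genes included Gal, Vip and Reg3b, had 104, 374, 273 and 2. In spots as in bulk tissue, fewer cells of a type and less RNA per cell cannot be told apart.

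The nuclear and the mitochondrially encoded genes did not follow the same order over the tissues. As a share of all UMIs, the ganglion region had more nuclear and fewer mitochondrially encoded transcripts than the central myelin region in every area. Ganglion spots were deeper, so these are shares and not numbers per spot. Mitochondrially encoded genes took 7.04%, 5.39%, 6.67% and 4.68% of the ganglion UMIs in TN1, TN2, TN3 and HC, and 12.6%, 14.2%, 11% and 9.22% of the central myelin UMIs. The highest ganglion value lay below the lowest central myelin value. The nuclear genes took 4.15%, 3.71%, 3.94% and 4.30% of the ganglion UMIs and 3.41%, 2.87%, 2.39% and 2.65% of the central myelin UMIs, again with no overlap and in the opposite order. The mean difference, ganglion minus central myelin, was -5.81 ± 2.04 percentage points for the mitochondrially encoded genes and 1.19 ± 0.474 for the nuclear genes (SD, n = 4 areas). Both had the same sign in 4 of 4 areas, for which the exact two-sided sign-flip permutation test gives p = 0.13, the smallest that 4 areas allow (adjusted p = 0.281 over 9 comparisons). For each nuclear UMI of these complexes there were 1.70, 1.45, 1.69 and 1.09 mitochondrially encoded UMIs in the ganglion region and 3.68, 4.93, 4.63 and 3.48 in the central myelin region.

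**Figure D1:**
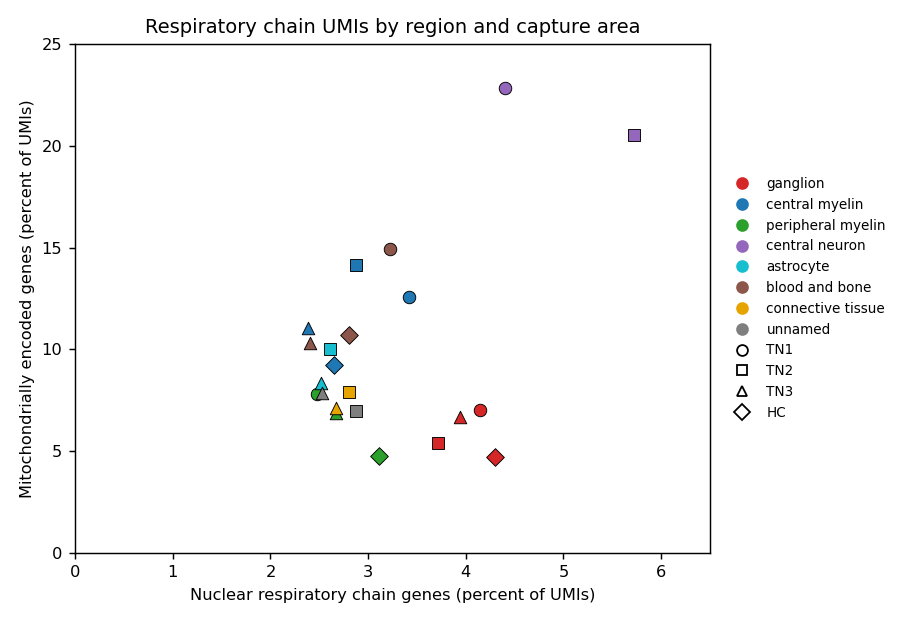
Share of UMIs of the 13 mitochondrially encoded genes (y axis, percent) against that of the 93 nuclear genes (x axis, percent), 1 point per region and capture area with at least 20 spots; the color gives the region and the symbol the area. The ganglion points lie to the right at 4.68% to 7.04% mitochondrially encoded, the central myelin points to the left at 9.22% to 14.2%, and the central neuron points of TN1 and TN2 stand apart at the upper right.

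The peripheral myelin region had the low nuclear share of the central myelin region without its high mitochondrially encoded share. The nuclear genes took 2.48%, 2.67% and 3.11% of its UMIs in TN1, TN3 and HC, below every ganglion value, and the mitochondrially encoded genes took 7.81%, 6.85% and 4.74%. TN2 had 9 spots of this region and was left out. HC had 58, in which the 13 sensory neuron markers summed to 8858 CPM, against 3293 CPM in TN1 and 3564 CPM in TN3. In the ganglion region of HC they were at 17493 CPM. Ganglion minus peripheral myelin was 1.38 ± 0.255 points for the nuclear genes and -0.336 ± 0.386 for the mitochondrially encoded genes (SD, n = 3 areas, same sign in 3 of 3, exact sign-flip p = 0.25, the smallest that 3 areas allow). The sign of the latter turned at matched depth: in spots with 10000 to 20000 UMIs the mitochondrially encoded share was 8.39%, 7.23% and 5.19% in the ganglion region and 7.57%, 7.05% and 4.95% in the peripheral myelin region of TN1, TN3 and HC, a mean difference of 0.414 points. Central minus peripheral myelin was 4.48 ± 0.283 points for the mitochondrially encoded genes and 0.065 ± 0.758 for the nuclear genes, of which the latter was positive in TN1 and negative in TN3 and HC.

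Both groups of genes were highest in the central neuron region, which was named after genes of inhibitory brain stem neurons such as Gad1 and Slc6a5 and had spots in TN1 and TN2. There the mitochondrially encoded genes took 22.8% and 20.5% of the UMIs, and the nuclear genes 4.40% and 5.73%. With 2 areas of 1 condition, these values were not tested. The blood and bone region (10.3% to 14.9% mitochondrially encoded in TN1, TN3 and HC), the astrocyte region (10.0% and 8.36% in TN2 and TN3) and the connective tissue region (7.88% and 7.12% in TN2 and TN3) had nuclear shares of 2.40% to 3.22%, under every ganglion value.

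Depth differed between these tissues, with a median of 27066 to 39940.5 UMIs per spot in the ganglion region and 4089 to 10797 in the central myelin region. Within the ganglion region, the quartile of spots with the most UMIs had a lower mitochondrially encoded share than that with the fewest in every area. From the lowest to the highest quartile of spots ranked on UMIs it went from 8.80% to 6.44% in TN1, from 6.05% to 5.21% in TN2, from 7.94% to 6.33% in TN3 and from 5.41% to 4.56% in HC. Between these quartiles the nuclear share went the other way, from 4.11% to 4.24%, 3.50% to 3.91%, 3.76% to 4.05% and 3.89% to 4.43%. Its Pearson correlation with depth over spots was 0.0912, 0.264, 0.475 and 0.598 in the same order. In TN1 it did not rise steadily, with 4.23% in spots of 5000 to 10000 UMIs, 3.95% at 20000 to 40000 and 4.23% above 40000. The lowest quartile of TN3 had a median of 657 UMIs, and 59 ganglion spots of TN3 had under 2000. In these 59 spots the mitochondrially encoded share was 7.45%, against 9.12% in TN3 ganglion spots of 5000 to 10000 UMIs, so it did not fall steadily there. Over spots, the Pearson correlation of the mitochondrially encoded share with depth was -0.536, -0.422, -0.175 and -0.365 in the ganglion spots of TN1, TN2, TN3 and HC (313 to 950 spots, which share a library and whose share has depth as its denominator). In the central myelin region it was -0.282, 0.232, -0.0536 and -0.116, so no common direction was seen there. The Spearman correlation in the ganglion spots was -0.555, -0.134, -0.174 and -0.258 in the same order of areas.

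**Figure D2:**
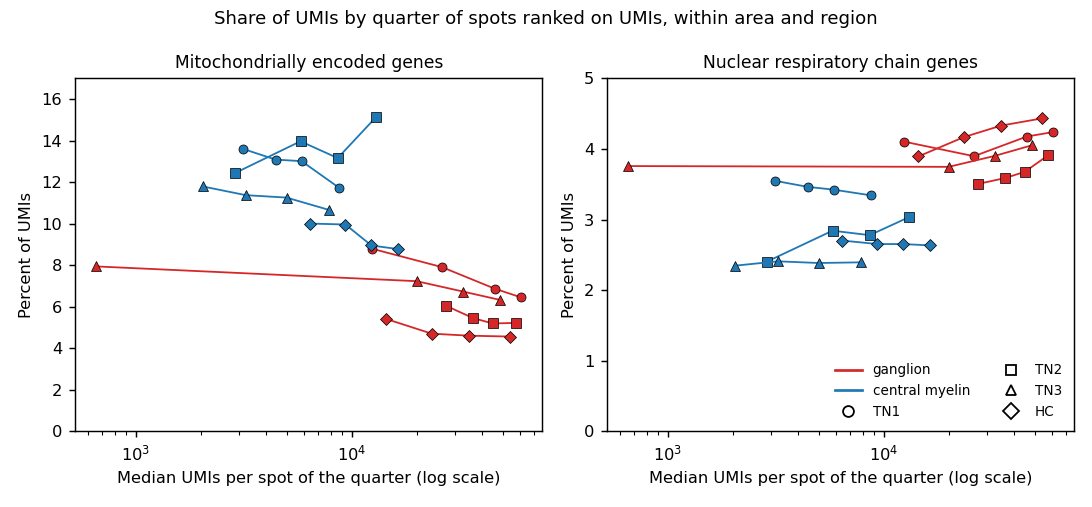
Share of UMIs (y axes, percent) of the mitochondrially encoded genes (left) and the nuclear genes (right) by quartile of spots ranked on UMIs within each area and region, against the median UMIs of the quartile (x axes, log scale); the color gives the region and the symbol the area. The ganglion lines for the mitochondrially encoded genes end lower on the right than they start on the left, at 4.56% after 5.41% in HC, and each stays under the central myelin line of the same area.

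At matched depth, the difference between the tissues was smaller but had the same sign. In spots with 10000 to 20000 UMIs, a band chosen after the data had been seen, the mitochondrially encoded share was 8.39%, 7.23% and 5.19% in the ganglion region of TN1, TN3 and HC and 11.8%, 10.1% and 9.04% in the central myelin region of the same areas. The mean difference was -3.37 points in these spots, compared with -4.82 over all spots of the same 3 areas. For the nuclear genes it was 1.17 points, compared with 1.31. TN2, which had the largest mitochondrially encoded difference over all spots, had under 20 ganglion spots in the band and was left out of both.

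Gene by gene, all 13 mitochondrially encoded genes were lower in the ganglion than in the central myelin region. This comparison used edgeR's quasi-likelihood test on the sums per region and area, with the area as a block and Benjamini-Hochberg adjustment at 0.05 over 11550 genes, of which 53.7% were called in either direction. By direction, 29.2% of all genes were called higher and 24.5% lower. Among genes not used to make the clusters, as the genes described here were not, these shares were 48.2%, 29.5% and 18.7%. The regions were made from other genes of the same spots, so the test speaks of how steady a difference was over areas. The log2 fold changes of the 13 genes ran from -0.85 to -2.64, with a median of -1.49, whereas the median of all genes tested was 0.06. In spots with 10000 to 20000 UMIs, without TN2, the median of the mitochondrially encoded genes was -0.96. There 11 of them were called lower, where 2962 of 7412 genes were called in either direction. Over all spots, the 13 genes did not fall evenly over the complexes. The 3 complex IV genes changed least, with -0.85 for Mt-co3, -0.92 for Mt-co1 and -1.16 for Mt-co2, the catalytic core of cytochrome c oxidase. Mt-cyb, the cytochrome b of complex III, was at -1.29 and Mt-atp6, the proton channel subunit of complex V, at -1.30. The 7 complex I genes ran from -1.37 for Mt-nd3 to -2.50 for Mt-nd4l.

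The values per area show this contrast within the mitochondrial genome. Mt-co3 was at 17862, 13864, 18202 and 13854 CPM in the ganglion region of TN1, TN2, TN3 and HC and at 27070, 32951, 29051 and 25609 CPM in the central myelin region (log2 fold change -0.85 ± 0.16, SE, edgeR adjusted p = 0.00151). Mt-nd2 was at 2808, 1725, 1927 and 1714 CPM in the ganglion region and at 8669, 8690, 5763 and 5433 CPM in the central myelin region (-1.80 ± 0.16, adjusted p = 9.95e-06). For both genes the ranges of the 2 regions lay apart. Mt-atp8 and Mt-nd4l, with -2.64 and -2.50, overlap Mt-atp6 and Mt-nd4 in the mitochondrial genome, and how the counting shared the reads between them is not given in the sources used here. Mt-nd6, the only protein gene on the other strand, was rare, at 1.70 to 3.70 CPM in the ganglion region and 4.76 to 24.4 CPM in the central myelin region (-2.01 ± 0.32, adjusted p = 0.00044). Since reads were counted per gene without a statement on strand in the sources used here, it cannot be told apart from transcripts of the opposite strand.

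**Figure D3:**
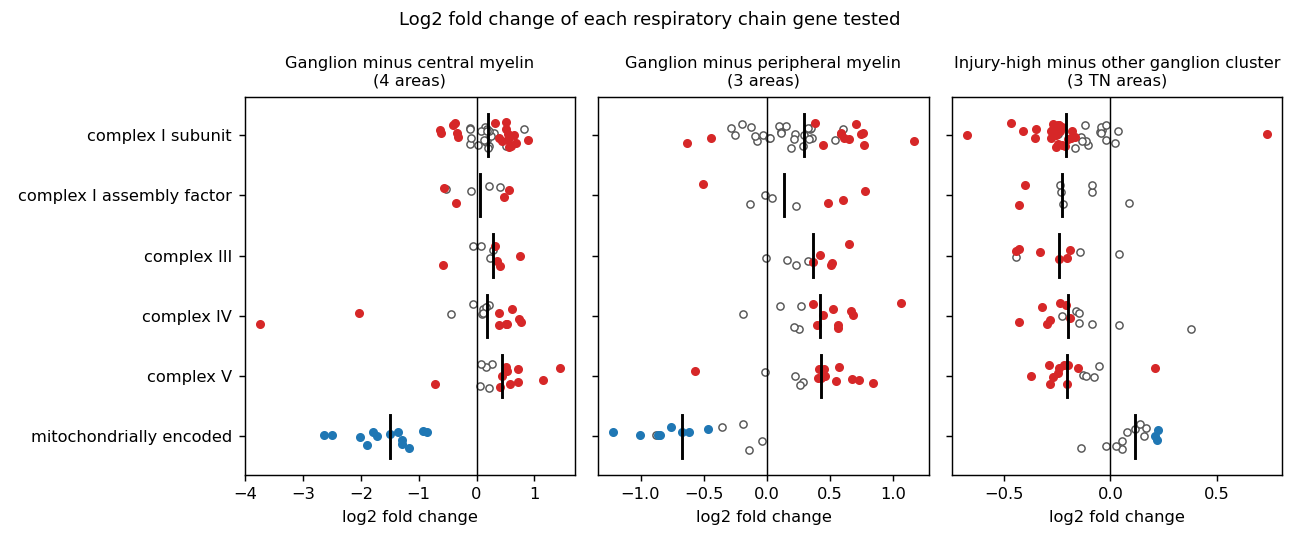
Log2 fold change (x axes, with a different range in each panel) of every gene tested, by complex, for the ganglion against the central myelin region, the ganglion against the peripheral myelin region and the injury-high against the other ganglion cluster within TN. Filled points passed the adjusted threshold of 0.05 and open points did not, and black bars are medians; the mitochondrially encoded genes lie at a median of -1.49 in the first panel and the nuclear classes on the other side of 0.

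Of the 93 nuclear genes, 86 passed the filter on low counts in this comparison. Of these, 35 were higher and 12 lower in the ganglion region, with a median log2 fold change of 0.22. The 35 of 86 called higher stand beside 29.2% over all genes and 29.5% over those not used to cluster. Without HC, 16 were higher and 11 lower, where calls over all genes also fell, to 4822 of 11217 from 6199 of 11550. Without TN1, TN2 and TN3 in turn, 35, 30 and 25 were higher, so the calls of higher genes fell most without HC. Over all genes, 5528 of 11564, 5966 of 11550 and 5387 of 11649 were called in these 3 fits. With each spot thinned to 2000 UMIs, 16 nuclear genes were higher and 10 lower, with a median of 0.11, where 3192 of 6990 genes were called.

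Among the complex V genes, 9 of 15 tested were higher and 1 was lower. Atp5f1d, the delta subunit of the central stalk, changed most, with 1351, 1216, 1179 and 1897 CPM in the ganglion region of TN1, TN2, TN3 and HC and 681, 473, 383 and 555 CPM in the central myelin region (1.44 ± 0.15, adjusted p = 2.26e-05). Atp5if1, which encodes the inhibitor that binds the catalytic head of the enzyme, was at 1262, 1169, 1158 and 1253 CPM against 690, 521, 437 and 561 CPM (1.15 ± 0.12, adjusted p = 3.29e-05). In both cases every ganglion value lay above every central myelin value. The catalytic beta subunit Atp5f1b rose by 0.72 ± 0.15, and Atp5f1e, the complex V gene with the most UMIs, gave 0.22 ± 0.12 without passing the test (adjusted p = 0.148).

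The membrane-embedded c ring of complex V showed an unequal pattern. Its subunit is encoded by 3 genes, Atp5mc1, Atp5mc2 and Atp5mc3, which differ in the import signal and yield the same mature protein. Atp5mc2 was at 244, 287, 290 and 262 CPM in the ganglion region of TN1, TN2, TN3 and HC and at 423, 457, 469 and 420 CPM in the central myelin region, so that every ganglion value was the lower (-0.71 ± 0.10, adjusted p = 0.000202). Atp5mc1 was at 376, 294, 308 and 450 CPM against 373, 270, 197 and 255 CPM (0.40 ± 0.15, adjusted p = 0.0415), with hardly any difference in TN1. Atp5mc3 was at 592, 472, 497 and 892 CPM against 503, 453, 283 and 389 CPM (0.58 ± 0.18, adjusted p = 0.0194), with its largest difference in HC. Atp5mc2 was also lower in the ganglion than in the peripheral myelin region (-0.57 ± 0.13, adjusted p = 0.00843), where Atp5mc3 was again higher (0.55 ± 0.13, adjusted p = 0.00876).

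The 100 bases before the RefSeq start of the 3 c subunit genes are printed because the genes moved in different directions, and those of Cox8a and Cox5b because they hold the second motif searched. The sequences are from RefSeq, build GRCr8, on the minus strand except for Cox5b, and read 5′ to 3′. Capitals mark the palindrome bound by the factor NRF1, in Atp5mc2, or CCGGAAGT, a sequence of ETS factors such as GABP, on either strand, in Cox8a and Cox5b. The 2 motifs do not overlap each other here. The stretches are Atp5mc1 chr10:81523346-81523445, Atp5mc2 chr7:135678219-135678318, Atp5mc3 chr3:79220665-79220764, Cox8a chr1:213833624-213833723 and Cox5b chr9:46417737-46417836.
Atp5mc1: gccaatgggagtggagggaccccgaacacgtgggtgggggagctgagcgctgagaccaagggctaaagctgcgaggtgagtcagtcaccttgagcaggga
Atp5mc2: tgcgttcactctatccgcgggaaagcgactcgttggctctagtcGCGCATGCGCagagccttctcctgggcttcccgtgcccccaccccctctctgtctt
Atp5mc3: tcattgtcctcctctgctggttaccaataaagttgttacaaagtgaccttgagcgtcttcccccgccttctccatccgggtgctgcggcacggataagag
Cox8a: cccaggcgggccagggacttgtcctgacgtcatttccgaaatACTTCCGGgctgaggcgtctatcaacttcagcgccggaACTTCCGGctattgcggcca
Cox5b: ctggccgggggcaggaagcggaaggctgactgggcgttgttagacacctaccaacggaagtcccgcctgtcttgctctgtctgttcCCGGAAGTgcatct

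The NRF1 palindrome, in the letters shown for Atp5mc2, was found before this gene and not before Atp5mc1 and Atp5mc3 in the window from 250 bases before to 50 bases after the start. Promoters were matched for 80 of the 93 nuclear genes, which gave 78 distinct windows. Of these 78, 6 (7.69%) held the NRF1 palindrome, compared with 256 of 27457 windows of all RefSeq genes in the promoter table (0.932%), and 8 (10.3%) held CCGGAAGT, compared with 1102 (4.01%). Of the 6 with the first motif, 3 were complex V genes, Atp5mc2, Atp5me and Atp5po, and the others were Ndufaf4, Ndufaf5 and Ndufa11. These genes did not share a direction between the regions, with log2 fold changes of -0.71, 0.06, 0.53, -0.09, 0.56 and 0.16 in the same order. Among the genes higher in the ganglion region 2 of 31 windows held this motif, and among those lower 1 of 12. A match is a description of the letters in this window only.

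Of 16 complex IV genes tested, 7 were higher and 2 lower in the ganglion region. Cox4i1, the gene of complex IV with the most UMIs and the ubiquitous form of subunit 4, was at 1601, 1470, 1588 and 2114 CPM in TN1, TN2, TN3 and HC against 1108, 903, 876 and 1051 CPM (0.78 ± 0.12, adjusted p = 0.000432), with no overlap. Its lung-type paralog Cox4i2 was rare, at 7.07 to 9.95 against 2.38 to 16.3 CPM (0.09 ± 0.34, adjusted p = 0.848). The other common forms behaved unequally: Cox6a1 (0.53 ± 0.13, adjusted p = 0.00626), Cox7b (0.39 ± 0.14, adjusted p = 0.0374) and Cox5b (0.39 ± 0.13, adjusted p = 0.0282) were higher, and Cox8a gave 0.11 ± 0.11 (adjusted p = 0.448). Cox7a2l, a factor for joining complexes III and IV into supercomplexes, was higher (0.52 ± 0.11, adjusted p = 0.00243). The table holds 2 gene IDs for Cox6b1, one at 0.11 (adjusted p = 0.425) and one at 0.61 (adjusted p = 0.00207), and reads may have been split between such near-identical copies.

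The muscle and heart forms of complex IV subunits were rare and mostly confined to a few regions. Cox6a2, the muscle form of subunit 6a, had 31, 19, 11 and 63 UMIs in the central myelin region of TN1, TN2, TN3 and HC, or 14.6, 14, 8.73 and 12.7 CPM. In the much deeper ganglion region it had 19, 5, 9 and 36 UMIs, or 1.56, 0.26, 0.764 and 1.19 CPM (-3.76 ± 0.38, adjusted p = 2.19e-05). It was also at 14.8 and 27.4 CPM in the astrocyte region of TN2 and TN3 and at 13.7 and 7.15 CPM in the central neuron region of TN1 and TN2, and it was higher in the central than in the peripheral myelin region (3.36 ± 0.50, adjusted p = 0.00165). The summed level of 8 skeletal and smooth muscle markers, such as Ckm and Acta2, was 72.9 to 107 CPM in the central myelin and 91.3 to 105 CPM in the ganglion region. Ckm was at 0 in the central myelin region of TN1, TN2 and TN3, and Mylpf in that of TN1. The skeletal markers were not summed apart, and the source of Cox6a2 was not tested. Cox8b, the muscle form of subunit 8, stood out in 1 area. It had 395 UMIs (128 CPM) in the central neuron region of TN2 and 24 (4.38 CPM) in that of TN1, and 25.9 CPM in the central myelin region of TN2 against 0.794 to 3.29 CPM in the other 3 areas. Its ganglion level was 0.509 to 1.87 CPM (-2.03 ± 0.59, adjusted p = 0.0143), and the central myelin value of TN2 was by far the highest behind it. Cox6b2, the testis form of subunit 6b, was highest in the connective tissue region, at 27.4 and 29.7 CPM in TN2 and TN3, against 2.59 to 9.03 CPM in the ganglion region. Cox7b2 had 14 UMIs in all spots.

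**Figure D4:**
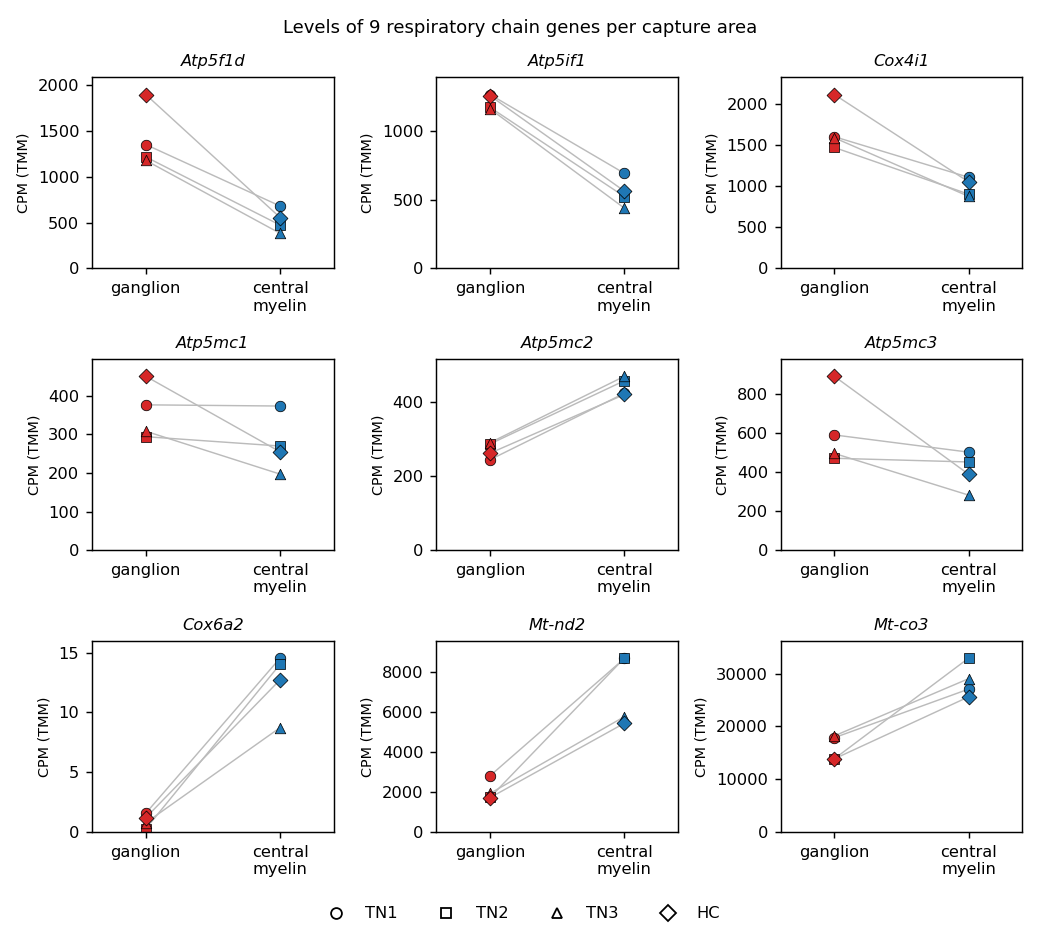
TMM-scaled CPM (y axes, from 0) of 9 genes in the ganglion and the central myelin region, with a line joining the 2 values of each capture area (red, ganglion; blue, central myelin; the symbol gives the area). Atp5f1d, Atp5if1 and Cox4i1 fall from left to right in all 4 areas, and Atp5mc2, Cox6a2, Mt-nd2 and Mt-co3 rise; Atp5mc1 and Atp5mc3 fall, with little difference in TN1 and TN2.

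Complex III had 4 of 9 genes higher and 1 lower. Its 2 core proteins went apart: Uqcrc1 was at 406, 353, 333 and 549 CPM in the ganglion region against 312, 239, 180 and 245 CPM (0.75 ± 0.14, adjusted p = 0.00118), and Uqcrc2 was at 158, 116, 149 and 146 CPM against 202, 208, 221 and 216 CPM (-0.58 ± 0.11, adjusted p = 0.00139). The ranges did not overlap for either gene. Uqcrq, the complex III gene with the most UMIs, gave 0.08 ± 0.11 (adjusted p = 0.566).

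Of 38 complex I subunits tested 13 were higher and 6 lower, beside 29.2% and 24.5% of all genes. Ndufv3 (the larger of its 2 gene IDs, 0.89 ± 0.13), Ndufv1, which carries the NADH binding site (0.69 ± 0.13), and Ndufa4 (0.64 ± 0.13, adjusted p = 0.00245) were higher. Ndufa4 has the most UMIs of this group and is now counted as a complex IV subunit. It was at 1476, 1153, 1296 and 1747 CPM in the ganglion region against 1122, 866, 765 and 877 CPM, without overlap. The 6 lower subunits were Ndufb4 (-0.63 ± 0.11), Ndufc2 (-0.62 ± 0.11), Ndufc1 (-0.41 ± 0.12), Ndufb11 (-0.38 ± 0.10), Ndufa13 (-0.34 ± 0.10) and Ndufa3 (-0.33 ± 0.11). Of 8 assembly factors 2 were higher (Ndufaf5 and Ndufaf7) and 2 lower (Ndufaf8 and Ndufaf2).

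Against the peripheral myelin region, the ganglion region had a larger share of nuclear transcripts of every complex. In 3 areas, 38 of 84 nuclear genes were higher and 4 lower, where 20.6% of 11250 genes were called higher and 24.5% lower (45.1% in either direction; 20%, 20.1% and 40.1% among genes not used to cluster), and the median was 0.35 beside -0.09 over all genes. The largest rises were in Ndufs1, the large iron-sulfur subunit of complex I (1.16 ± 0.14, adjusted p = 0.000483), Cox5a (1.06 ± 0.14), Atp5f1d (0.84 ± 0.17), Ndufaf5 (0.78 ± 0.15) and Ndufa10 (0.77 ± 0.16). Ndufs1 was at 74.8, 43.1 and 33.8 CPM in the ganglion region of TN1, TN3 and HC and at 33.5, 19.7 and 14.2 CPM in the peripheral myelin region, with the lowest ganglion value just above the highest peripheral myelin value. The 4 lower genes were Ndufa4l2, Atp5mc2, Ndufaf8 and Ndufa7. Leaving out TN1 left 20 higher and 1 lower, where 3141 of 11222 genes were called in either direction. Leaving out TN3 left 11 higher and 0 lower (3287 of 11336 genes), and leaving out HC 46 higher and 4 lower (5416 of 11599 genes).

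Of the mitochondrially encoded genes, 8 of 13 were lower in the ganglion than in the peripheral myelin region, all of them complex I genes but for Mt-atp8 and Mt-cyb. The 3 complex IV genes gave -0.04 (Mt-co3), -0.14 (Mt-co2) and -0.19 (Mt-co1) and did not pass, while the 6 complex I genes that passed ran from -0.62 to -1.21. In spots with 10000 to 20000 UMIs 0 of the 13 passed, with a median of -0.17 in place of -0.67. These 8 calls were thus not seen at matched depth, whereas 23 nuclear genes were higher and 0 lower. Calls over all genes also fell there, to 2095 of 8013 in either direction from 5077 of 11250 over all spots. The median depth was 27066 to 34879 UMIs in the ganglion and 7982 to 12698.5 in the peripheral myelin region of these areas.

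Between the 2 myelins, the nuclear genes had no common direction over areas and the mitochondrially encoded genes were higher in the central one. The nuclear median of the log2 ratios was 0.40 in TN1, 0.02 in TN3 and -0.03 in HC. Of 84 nuclear genes 4 were higher in the central myelin region (Cox6a2, Uqcrc2, Ndufs1 and Ndufc2) and 0 lower, where 9.94% of 9823 genes were called higher and 9.18% lower (19.1% in either direction; 5.55%, 6.69% and 12.2% among genes not used to cluster). At an unadjusted p under 0.05, 12 were higher and 0 lower (15.5% of all genes were higher by this rule). DESeq2 called 3, where it called 1455 of 9823 genes. Uqcrc2 was at 190, 217 and 204 CPM in the central and 113, 105 and 79.2 CPM in the peripheral myelin region of TN1, TN3 and HC (1.04 ± 0.20, adjusted p = 0.0056), with no overlap. All 13 mitochondrially encoded genes had a positive value, with a median of 0.90, and 6 passed: Mt-atp8, Mt-nd4l, Mt-co2, Mt-nd4, Mt-nd5 and Mt-nd2. Without TN3 none (0) of them passed, where 870 of 9969 genes were called in either direction. Without HC 2 passed (1684 of 10019 genes), while without TN1 11 passed (2636 of 9929 genes).

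Between TN and HC no gene of the group passed the test over all spots, in the ganglion region or in the central myelin region; the peripheral myelin region was not tested. Over all spots, in the ganglion region and in the central myelin region, edgeR called 0 of 87, 0 of 86 and 0 of 85 nuclear genes and 0 of 13 mitochondrially encoded genes. These tests called 0% of all genes too; at an unadjusted p under 0.05, 1271, 1299 and 300 genes of all passed (8.53%, 9.95% and 3.07%), and DESeq2 called 144, 133 and 3 genes of all and 0 of the group. These counts hung on TN1: without it edgeR called 2171, 701 and 182 genes of all in the same 3 sets of spots, among them 1 nuclear gene higher and 2 lower over all spots, 1 lower in the ganglion region and 0 in the central myelin region, and 0 mitochondrially encoded genes. The fits had 3 TN sums and 1 HC sum, and assume that HC varies like the TN areas.

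The directions are given as a description only, since genes measured in the same 4 sums are not replicates of the condition. In the ganglion region 12 of the 13 mitochondrially encoded genes had a positive value, with a median log2 fold change of 0.36, and 59 of 86 nuclear genes a negative one, with a median of -0.14 (0.03 over all genes). Over all genes tested, 6957 of 13058 were positive and 6100 negative. At an unadjusted edgeR p under 0.05, 8 nuclear genes were lower and 0 higher, beside 9.95% of all genes in either direction. Mt-cyb had the smallest p of the 13, with 6649, 4603 and 5696 CPM in TN1, TN2 and TN3 and 3824 CPM in HC (unadjusted p = 0.075, edgeR adjusted p = 0.508). The nuclear genes with the smallest p were Ndufv1, at 367, 330 and 317 CPM in TN against 546 CPM in HC (-0.69 ± 0.17, adjusted p = 0.496), Atp5mc3, at 614, 514 and 539 against 907 CPM (-0.71 ± 0.18, adjusted p = 0.496), and Ndufa11, at 334, 311 and 312 against 485 CPM (-0.61 ± 0.16, adjusted p = 0.496). Within cluster 1 alone, an alternative chosen after the data had been seen, the nuclear median was -0.02, and the nuclear genes took 4.28%, 4.26%, 4.31% and 4.30% of the UMIs of TN1, TN2, TN3 and HC. The mitochondrially encoded genes took 7.14%, 5.21%, 6.48% and 4.68% of the UMIs of the same spots.

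In the central myelin region all 13 mitochondrially encoded genes had a positive value, with a median of 0.49, and 54 of 85 nuclear genes did, with a median of 0.05. Of all genes tested there, 5190 of 9758 were positive. The 2 central myelin clusters differed in their mix, since in TN1, TN2, TN3 and HC in turn cluster 4 had 313, 134, 222 and 139 spots and cluster 8 had 73, 46, 62 and 340. In cluster 4 alone the mitochondrially encoded median was 0.14 and in cluster 8 alone 0.27, both alternatives chosen after the data had been seen. In the ganglion, central myelin and peripheral myelin regions HC had the lowest mitochondrially encoded share of the areas measured. In the blood and bone region TN3 was lower, at 10.3% against 10.7% in HC, and within central myelin cluster 4 TN3 was lower too, at 11.6% against 11.9%. In the test of whether TN against HC differed between these 2 main regions (ganglion, central myelin), 0 of 86 nuclear and 0 of 13 mitochondrially encoded genes passed, beside 0.0226% of 13284 genes. At an unadjusted p under 0.05, 6 nuclear genes and 0 mitochondrially encoded genes passed, beside 5.71% of all genes.

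Within the TN areas, the ganglion spots of the injury-high cluster had a smaller share of nuclear respiratory chain transcripts than the other ganglion spots of the same areas. The injury-high cluster (cluster 5) was chosen as the ganglion cluster with the highest score on 10 nerve injury genes, so their high level there was set by this choice. They summed to 1996 to 3241 CPM in it. In cluster 1 they were at 1256, 1584 and 1143 CPM in TN1, TN2 and TN3 and at 600 CPM in HC. Cluster 1 of the TN areas was thus above HC in these genes as well. The nuclear genes took 3.85%, 3.62% and 3.57% of the UMIs of cluster 5 in TN1, TN2 and TN3, against 4.28%, 4.26% and 4.31% in cluster 1, with no overlap. Cluster 5 was also the shallower in each area. Its median was 30945, 38390.5 and 19236 UMIs per spot, against 38528, 56436 and 39239 in cluster 1. The mitochondrially encoded genes took 6.83%, 5.42% and 6.86% against 7.14%, 5.21% and 6.48%, and these ranges overlapped. Of 84 nuclear genes 47 were lower and 2 higher, where 14.9% of 10773 genes were called lower and 17.4% higher (32.2% in either direction; 13.8%, 12.9% and 26.7% among genes not used to cluster). The median was -0.21, compared with 0.03 over all genes, and was -0.16, -0.21 and -0.23 in the log2 ratios of TN1, TN2 and TN3, each lower than 0. The number called was smaller in other settings. In spots of 20000 to 40000 UMIs 12 were lower, where 1284 of 8984 genes were called in either direction, and the nuclear median was -0.19. Without TN3 27 were lower and 1 higher, where 2595 of 11050 genes were called.

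All 4 complexes took part in this, with 22 of 38 complex I subunits, 6 of 9 complex III genes, 7 of 14 complex IV genes and 10 of 15 complex V genes lower. Ndufs1 fell most, with 65.9, 32.4 and 33.3 CPM in the injury-high cluster of TN1, TN2 and TN3 and 89.5, 55.4 and 60.9 CPM in cluster 1 (-0.67 ± 0.09, adjusted p = 2.32e-05). Ndufb3, a membrane arm subunit, was at 235, 200 and 221 CPM against 297, 294 and 315 CPM (-0.47 ± 0.06, adjusted p = 1.19e-05), and Uqcrc2 was at 138, 122 and 138 CPM against 180, 172 and 188 CPM (-0.44 ± 0.06, adjusted p = 2.54e-05). In both, every value of the injury-high cluster was the lower. Ndufaf5 (-0.43 ± 0.08) and Cox7b (-0.43 ± 0.06), a small subunit of complex IV, completed the 5 largest falls. Cox4i1 did not pass, and Ndufa4 fell by 0.26 on the log2 scale (adjusted p = 0.0019).

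The 2 nuclear genes that were higher in the injury-high cluster were Ndufa4l2 and Atp5mc2. Ndufa4l2, a paralog of Ndufa4 known as a target of hypoxia-inducible factors, was rare, at 13.2, 13.6 and 11.6 CPM against 8.14, 9.10 and 6.07 CPM (0.74 ± 0.18, adjusted p = 0.00444). Atp5mc2 was at 275, 325 and 347 CPM against 251, 279 and 287 CPM (0.21 ± 0.06, adjusted p = 0.0101), while Atp5mc1 and Atp5mc3 were lower (-0.15 ± 0.06 and -0.22 ± 0.06, adjusted p = 0.0464 and 0.00539). Of the 13 mitochondrially encoded genes, Mt-nd2, Mt-nd3 and Mt-nd5 were higher by 0.21 to 0.22, with adjusted p of 0.0131 to 0.0232. These 3 calls were not made by DESeq2 or without TN2 or TN3. Those fits called 1705 of 10773, 2650 of 10951 and 2595 of 11050 genes of all.

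**Figure D5:**
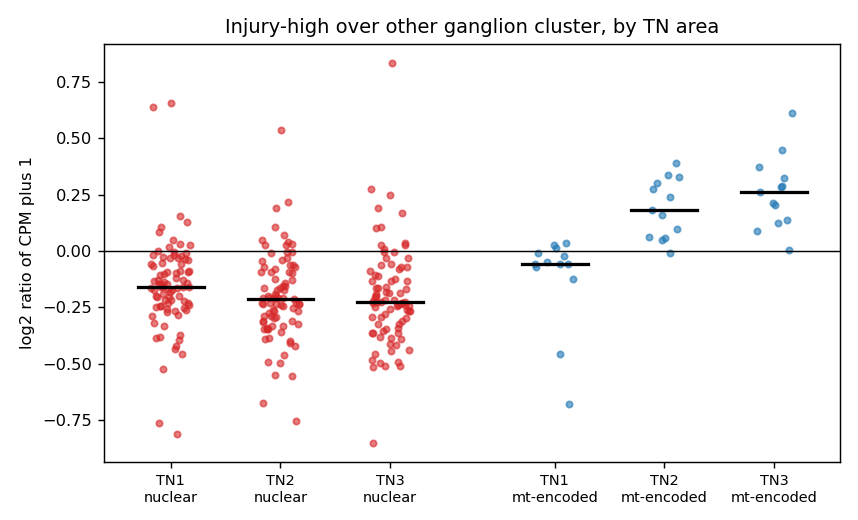
Log2 ratio of CPM plus 1 (y axis), injury-high over other ganglion cluster, of each nuclear (red) and mitochondrially encoded (blue) gene tested in each TN area (x axis), with black bars at the medians. The nuclear medians lie at -0.16, -0.21 and -0.23, and the mitochondrially encoded medians at -0.06 in TN1 and above 0 in TN2 and TN3.

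Markers of other cells moved with the same comparison. Unlike the respiratory chain genes, these markers were not kept out of the genes used to make the clusters. They may thus have helped to set the clusters apart, and their calls are no independent test of the mix of cells. All 8 macrophage markers (Cd68, C1qa and others) were higher in the injury-high cluster, with 1534 to 2255 CPM in sum. In cluster 1 they summed to 757, 911 and 867 CPM in TN1, TN2 and TN3, and to 324 CPM in HC, which was not in the test. All 7 Schwann cell markers were higher, with 5456 to 8906 CPM, against 3028 to 6901 CPM in cluster 1 with HC included. Of 12 sensory neuron markers tested 9 were lower and 1 higher, with a median of -0.71. Their sum was 17434, 15516 and 13750 CPM in the injury-high cluster of TN1, TN2 and TN3 against 16803, 19708 and 15286 CPM in cluster 1, so that it was higher in TN1 and lower in TN2 and TN3. The sum of 7 central neuron markers was lower in each area, at 882, 612 and 836 CPM against 1640, 1337 and 1738 CPM. Cytosolic ribosomal protein genes were higher in 60 of 76 cases. No macrophage or Schwann cell marker was at 0 in either cluster. The part of these cells in the lower nuclear respiratory chain level was not tested.

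Among other lists of mitochondrial metabolism, the counts called lower in the injury-high cluster ranged from most of the list to a share near the 14.9% of all genes. Of the TCA cycle list 12 of 16 were lower and 1 higher, among them Pdhb of pyruvate dehydrogenase (-0.52 ± 0.06) and Sucla2 of succinyl-CoA ligase (-0.46 ± 0.06). In the list of complex II and cytochrome c 3 of 5 were lower (Sdhd, Cyc1 and Sdha) and 0 higher. Of the import list 12 of 21 were lower, such as Timm10 (-0.51 ± 0.07), of glycolysis 6 of 16, such as Pfkm (-0.37 ± 0.06), and of the mitochondrial ribosome 14 of 73, with 3 higher. The list of mitochondrial biogenesis had 2 lower (Lrpprc and Esrra) and 1 higher (Twnk, the mitochondrial DNA helicase, 0.41 ± 0.13) of 12, and the stress list had 3 lower of 9, including Chac1 and Ddit3. The shares of the mitochondrial ribosome and biogenesis lists were near that of all genes.

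Set against central myelin, the ganglion region was mixed in the same lists, beside 29.2% of all genes called higher and 24.5% lower. Of the TCA cycle list 10 of 16 were higher and 2 lower in the ganglion region, the latter being Suclg2 (-1.52 ± 0.11) and Idh2 (-0.72 ± 0.11). Of the list of complex II and cytochrome c, Cyc1 was higher (0.73 ± 0.13), and Sdhc (-0.75 ± 0.10) and Sdhd (-0.36 ± 0.10) were lower. Of glycolysis 10 of 16 were higher and 1 lower, which was Aldoc, of the import list 11 of 22 were higher, and of the mitochondrial ribosome 29 of 74 were higher and 6 lower. Of the stress list 7 of 10 were higher, such as Atf4 (0.71 ± 0.10), and 0 lower, while 54 of 77 cytosolic ribosomal protein genes were lower and 1 higher. Tfam, which packages mitochondrial DNA and starts its transcription, was lower in the ganglion region, at 19.3, 23.1, 24.5 and 21.7 CPM against 26.8, 33.2, 33.3 and 29.7 CPM (-0.47 ± 0.12, adjusted p = 0.00778), without overlap. Lrpprc, which stabilises mitochondrial messenger RNA, was higher (0.51 ± 0.13, adjusted p = 0.0072). Whether either gene bears on the mitochondrially encoded level was not tested.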

How the data were processed

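Visium spatial gene expression was measured in 4 capture areas. Raw UMI counts, which the authors obtained with Space Ranger (1.2.0 per the file headers; STAR is also named), were deposited without normalization. Genome build, annotation and any equalising of depth between areas: not given in the sources used here. Spots were assigned to areas by the barcode suffix.

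SCTransform (sctransform 0.4.2) was run on 16088 genes detected in 10 or more spots. From 3000 variable genes, none of them among the 106, 30 principal components were taken (irlba 2.3.5.1), and K-means used 50 starts. Clusters were named by the leading marker list, or left unnamed where the leading lists were close. The nerve injury and satellite glia lists were not used for naming. Cluster 5 scored highest on the nerve injury list (1.556) and next on the sensory neuron list (1.213). One marker used for this is not reported here. UMIs were summed per area and region (at least 20 spots) and tested by the quasi-likelihood method of edgeR 4.0.16 after filterByExpr and TMM, in R 4.3.3; SE is the log2 fold change divided by the root of the F statistic. The test was also run on simulated counts with known changes, drawn without differences between areas. That run does not measure how the calls made here hold under such differences. TN against HC in the peripheral myelin region was not run because TN2 had 9 spots. Depth was 1372385 to 30842193 UMIs per sum for the ganglion and central myelin regions. Genes were named by rule: the mitochondrially encoded genes, tissue-restricted paralogs, the 5 largest rises and falls past the threshold with 1 direction in every area (the smallest p where none passed), the most abundant of each complex and those against their complex; listed pathway genes were added. The members and lists were chosen with earlier results of these data known. Alternatives were DESeq2 1.42.0, other size factors, filters, depths, clusterings and areas left out.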

Additional observations from a re-analysis of the deposited data

How the results depend on the processing

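No paired analysis was possible because HC carries no replicate number and is 1 area; the comparisons between regions have the area as a block. The numbers of genes called moved with the areas left out and with depth, as did those over all genes. Over all genes, leaving out 1 area gave 4822 to 5966 calls for the ganglion against the central myelin region, in place of 6199. Against the peripheral myelin region it gave 3141 to 5416 in place of 5077. For the central against the peripheral myelin region it gave 870 to 2636 in place of 1878, and for the injury-high cluster 2595 to 3302 in place of 3471. For the ganglion against the central myelin region, leaving out 1 area gave 27 to 43 nuclear calls in place of 47; for the ganglion against the peripheral myelin region 11 to 50 in place of 42, and 3 to 8 mitochondrially encoded calls in place of 8; for the central against the peripheral myelin region 1 to 9 in place of 4, and 0 to 11 in place of 6; for the injury-high cluster 28 to 57 in place of 49, and 0 to 7 in place of 3; for TN against HC 0 to 3 nuclear calls over all spots and 0 to 1 in the ganglion region, both without TN1 at the upper end. Thinning each spot to 2000 UMIs gave 26 nuclear calls for the ganglion against the central myelin region. Of these, 16 were higher and 10 lower, in place of 35 and 12, and the nuclear median was 0.11 in place of 0.22. Against the peripheral myelin region thinning gave 25, with 23 higher and 2 lower. It gave 1 for the central against the peripheral, and 12 nuclear and 0 mitochondrially encoded for the injury-high cluster. In the same order, these fits called 3192 of 6990, 2326 of 7005, 1106 of 6872 and 465 of 4992 genes of all. In spots with 10000 to 20000 UMIs (added after the data had been seen) there were 24 and 23 nuclear calls for the ganglion against the central and the peripheral myelin region. Against the former 11 mitochondrially encoded genes were called, in place of 13, and against the latter 0. For the central against the peripheral there were 2 nuclear and 2 mitochondrially encoded calls. In spots with 20000 to 40000 UMIs there were 12 and 0 for the injury-high cluster. Over all genes, 2962 of 7412, 2095 of 8013, 1229 of 7438 and 1284 of 8984 were called in these fits, in the same order. DESeq2 gave 12 mitochondrially encoded calls for the central against the peripheral myelin region and 0 for the injury-high cluster (1455 of 9823 and 1705 of 10773 of all genes). With 8 clusters there were 9 nuclear and 12 mitochondrially encoded calls for the former and 5 mitochondrially encoded for the latter (2470 of 8090 and 3855 of 10838 of all genes). With 12 clusters there were 0 mitochondrially encoded calls for the latter (2524 of 10088 of all genes). Fewer UMIs, areas or genes enter these fits by construction. For the other settings the cause was not tested. Leaving out TN2 gave no value where the peripheral myelin region enters, since TN2 was not in those fits. Without a filter on low counts the nuclear split of the ganglion against the central myelin region was 45 higher and 7 lower. Of all genes, 6719 of 19105 were called there. The mitochondrially encoded difference in share moved with 12 clusters to -1.05 points (ganglion minus peripheral myelin) and 5.32 (central minus peripheral), and at 10000 to 20000 UMIs to -3.37 (ganglion minus central, without TN2, in place of -4.82 over all spots of the same areas), 0.414 (ganglion minus peripheral) and 3.79 points. Over all regions, the lowest minus the highest quartile of spots by UMI was 4.47 points for mitochondrially encoded and -0.903 for nuclear genes, in place of 1.41 and -0.343 in the ganglion region. Leaving out mitochondrial, ribosomal protein and hemoglobin genes moved the nuclear median of the interaction from -0.21 to -0.03. Of the remaining values for single genes and medians, 607 were labelled unchanged, 49 lost the threshold and 14 moved by over 1 SD. A single gene was unchanged if it kept direction and side of the threshold. A median was unchanged if it moved by at most 1 SD over areas, whatever its sign. None (0) of the single genes reversed. Some medians changed sign: without TN1 the nuclear one of TN against HC in the central myelin region went from 0.05 to -0.09. Without TN2 the mitochondrially encoded one of the interaction went from -0.18 to 0.10.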

Other observations

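Some rows of these families held almost no transcripts although the protein belongs to every complex of its kind. Ndufa1 had 2 UMIs and Atp5pb 25 in all spots, against 169492 for Ndufa4 and 209213 for Atp5f1e. The other rows near 0 were Ndufa10l1 with 10 UMIs, Cox7b2 with 14 and Cox6c-ps1 with 3. Of these rows Atp5pb was tested over all spots alone, where its TN against HC log2 fold change was 0.71 (edgeR adjusted p = 0.817).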
